A study of Mus musculus with 8 samples.

Results

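The genes described here are the chemokines, the interleukins, the receptors of both and the Socs genes, followed in the skin of mouse pups. They were taken by name: every row of the deposited table whose accession led to a mouse symbol of Ccl, Cxcl, Ccr, Cxcr, Socs or Il followed by a number, with values on at least 3 arrays. The rule found 99 rows. Of these, 94 had enough values and are the genes described, out of 21766 probes on the array, and each of them is 1 gene with 1 probe. They are 21 CC ligands, 8 CXC ligands, 13 chemokine receptors, 20 interleukins, 28 interleukin receptors and binding proteins, and 4 Socs genes. The 5 rows with fewer values were Ccr9, Cxcl10 and Il4i1, which had values on 1 or 2 arrays, and Il15 and Socs1, which had none.

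Total RNA from near naked hairless mutants and from wild type mice, both aged 7 days, was hybridized together in 2 dyes to 8 spotted arrays. Cy5 marked the mutant on arrays 2, 4, 6 and 7, and Cy3 did so on arrays 1, 3, 5 and 8. The design text gives 5 biological replicates from 1 litter. No label says which animal an array came from, and 8 exceeds 5, so some arrays shared an animal. P-values taken over arrays are therefore too small and in part measure technical spread. The sources used here do not give the strain, the sex or the mutant allele. Values are read as log2 ratios of mutant over wild type on every array. That direction is not stated and was assumed. If the sign were opposite, higher and lower would trade places throughout. If the table instead holds Cy5 over Cy3, other genes pass the test and Socs3 does not.

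Chemokines are small secreted proteins that attract cells carrying the matching receptor, a protein with several passes through the membrane. Interleukins act on paired receptor chains, many of which signal through Janus kinases (JAK) and the STAT transcription factors. The Socs proteins are induced by that signalling and shut it down, by binding the receptor or the kinase and marking it for breakdown. In skin, keratinocytes, resident immune cells and vessels all make and receive these signals.

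Socs3 was lower in the mutant and was the one gene past the test among the 56 of the 94 that could be fitted. After quantile normalization or with array weights more of these genes and more of all probes passed, as given at the end. Because STAT factors bind the Socs3 promoter in many cells, its sequence is given here, from RefSeq on build GRCm38.p6, as the 250 bases before the start of the gene on the minus strand, chr11:117969367-117969616. Capitals mark the single match to the STAT motif TTCNNNGAA, which reads the same on both strands and begins 154 bases before the start.
Socs3: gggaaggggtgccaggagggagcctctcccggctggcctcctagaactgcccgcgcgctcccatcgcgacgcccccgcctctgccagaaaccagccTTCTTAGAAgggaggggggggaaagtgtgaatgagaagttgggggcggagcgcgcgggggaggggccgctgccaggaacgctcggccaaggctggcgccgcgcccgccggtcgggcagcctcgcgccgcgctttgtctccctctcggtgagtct
The motif was present in 7.02% of 32851 promoters of this length. It was present in 10 of the 86 promoters held for 71 of the 94 genes, or 11.6%. Among those 10 were the promoters of Cxcl14, Ccr6, Il12rb2, Il18r1 and Il7r, whose ratios follow below. A match is a run of letters and was not measured as a binding site.

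The Socs3 ratio was -0.11 on array 1, -1.11 on array 2, -1.55 on array 4, -1.16 on array 5, -1.91 on array 6, -1.48 on array 7 and -1.70 on array 8, with no value on array 3. All 7 values lay below 0, and array 1 alone lay near it. The fitted log2 ratio was -1.25 ± 0.23 (SE, n = 7 arrays; 95% interval -1.75 to -0.76), a level 2.38-fold lower in the mutant, with a Benjamini-Hochberg adjusted p of 0.0102 in limma over 11974 probes. Its mean was -1.51 where the mutant carried Cy5 and -0.99 where it carried Cy3, so both orientations gave the same sign. Its dye part, the Cy5 mean less the Cy3 mean, was -0.52 (adjusted p 0.438 in limma). The ratio was past the test without any 1 of the 7 arrays with a value, from -1.47 without array 1 to -1.07 without array 8. If the table is instead read as 1 dye over the other, Cy5 over Cy3, the value was -0.26 and did not pass (adjusted p 0.438 in limma), and as Cy3 over Cy5 its sign would turn.

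The other Socs genes did not share that pattern. Socs5, a suppressor of epidermal growth factor and interleukin 4 signalling, had a value on every array, from -0.60 to 0.82. Its fitted ratio was -0.01 ± 0.22 (SE, n = 8 arrays), with a 95% interval of -0.49 to 0.46 that does not reach the Socs3 value. Socs6, which acts on insulin receptor and KIT signalling, was above 0 on 5 of 6 arrays, with a mean of 0.20 ± 0.50 (SD, n = 6). Socs2, the suppressor of growth hormone signalling, had values on 4 arrays: -4.12 on array 4, 0.46 on array 5, -0.88 on array 6 and -0.10 on array 7. A single array thus held the low Socs2 mean. Socs6 and Socs2 had too few values for the fit. Cish, the nearest relative of Socs2 and counted below among the pathway genes, had a fitted ratio of 0.11 ± 0.25 (SE, n = 7). Whether Socs3 differed from the other Socs genes was not tested.

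**Figure D1:**
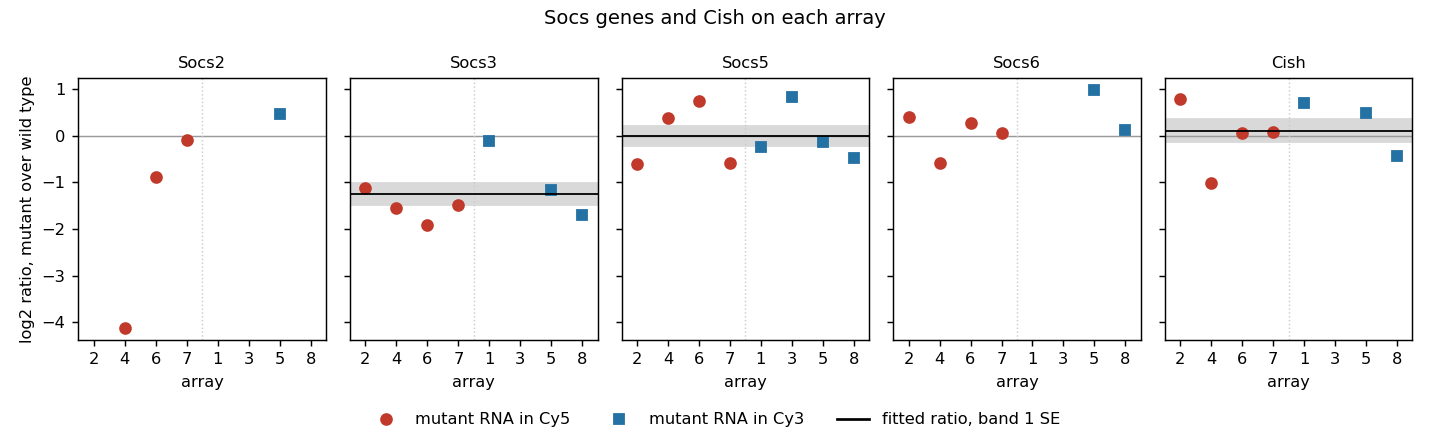
Log2 ratio of mutant over wild type (vertical axis) on each array (horizontal axis), with a panel for each Socs gene and Cish. Red circles and blue squares mark the mutant RNA in Cy5 and in Cy3, and the black line and grey band give the fitted ratio and 1 SE where a gene was fitted. Socs3 lies below 0 on all 7 arrays with a value, from -1.91 to -0.11, while Socs5 lies on both sides of 0.

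A ratio and a dye part were fitted where at least 3 arrays of each orientation had a value, which held for 56 of the 94 genes (59.6%) and for 55.0% of all probes. The test called 4.21% of all probes, 3.53% as lower and 0.676% as higher in the mutant. It called 1 of the 56 genes, Socs3 (1.79%), and no gene as higher. At an unadjusted p below 0.05 there were 10 of 56 (17.9%), against 20.5% of all probes. Ratios above 0 were found in 31 genes and below 0 in 25, with a median of 0.09 against 0.05 for all probes. A size over 1 on the log2 scale was found in 5.36% of the genes and in 4.88% of the probes. The cytokine genes as a group thus stood close to the array as a whole. All probes gave 81 higher and 423 lower calls. After quantile normalization they gave 380 and 757. As deposited but read as Cy5 over Cy3, they gave 533 and 107. The balance of the 2 directions thus depends on the scaling and turns with that reading.

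**Figure D2:**
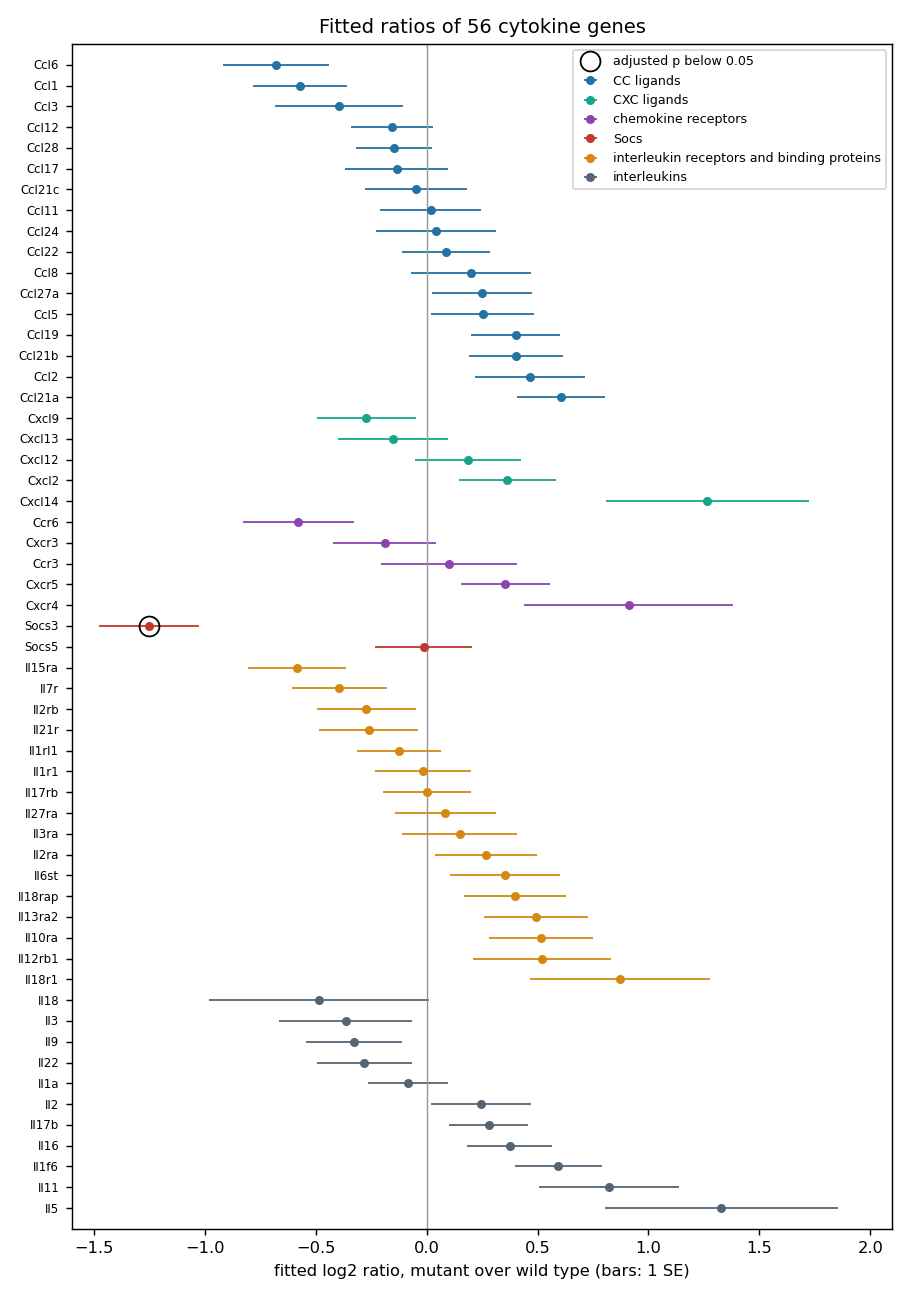
Fitted log2 ratio of mutant over wild type (horizontal axis) with bars of 1 SE for the 56 genes with a fit (vertical axis), ordered by role. Socs3, at -1.25, carries the ring of an adjusted p below 0.05, and Il5 and Cxcl14 are the highest with wide bars.

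Among the 17 fitted CC ligands, 10 lay above 0 and 7 below, with a median of 0.04, and none passed the test. An unadjusted p below 0.05 was found for 3, namely Ccl21a, Ccl6 and Ccl1. Ccl21a, a ligand of CCR7 that attracts dendritic cells and T cells, was 0.46, 0.55, 0.75, 0.08, 0.57, 0.59 and 1.22 on arrays 2 to 8. All 7 values lay above 0, with similar means in the 2 orientations (0.59 and 0.62). The fitted ratio was 0.60 ± 0.20 (SE, n = 7; adjusted p 0.114 in limma). Ccl21b and Ccl21c are near-identical copies of Ccl21a, so that a probe of one may read the others. Their ratios were 0.40 ± 0.21 and -0.05 ± 0.23 (SE), and the assignment of all 3 is uncertain. Ccl19, the other CCR7 ligand, was at 0.40 ± 0.20 (SE, n = 8). Without array 2, Ccl19 was at 0.24 and Ccl21b at 0.22.

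Ccl6, a ligand of CCR1 made by myeloid cells, was below 0 on 6 of 7 arrays, with 0.14 on array 1, -0.28 on array 2, -1.73 on array 4, -0.31 on array 5, -0.96 on array 6, -0.68 on array 7 and -1.18 on array 8. Its fitted ratio of -0.68 ± 0.24 (SE) did not pass (adjusted p 0.137 in limma). Ccl1, the ligand of CCR8, was at -0.57 ± 0.21 (SE, n = 6; adjusted p 0.163 in limma). The Ccl1 values split by dye, with a mean of -1.32 where the mutant carried Cy3 and 0.17 where it carried Cy5. Ccl3, a ligand of CCR1, had a fitted ratio of -0.40 although 5 of its 7 values lay above 0. Its median was 0.04, and arrays 7 and 8, at -2.07 and -1.03, were the low ones. Ccl27a, the keratinocyte ligand of CCR10, was at 0.25 ± 0.22 (SE, n = 7). The remaining fitted CC ligands lay between -0.16 (Ccl12) and 0.47 (Ccl2, the ligand of CCR2).

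Many chemokine genes lie in clusters in the genome. In the cluster of Ccl27a, Ccl21b, Ccl19, Ccl21a, Il11ra1 and Il11ra2, with no more than 1 Mb between neighbours, the 4 fitted ratios, all of ligands, lay above 0, from 0.25 to 0.60. The probes of Ccl21a and Ccl21b may read each other, so the 4 need not be separate readings. Ccl21c, the copy not among the genes grouped there, was fitted at -0.05. The receptor genes Il11ra1 and Il11ra2 had no fit and means below 0, at -0.95 and -0.35. In the cluster of Ccl2, Ccl11, Ccl12, Ccl8 and Ccl1, 3 fitted ratios lay above 0 and 2 below, with a median of 0.02. In that of Ccl5, Ccl6, Ccl3, Ccl9 and Ccl4, 1 of the 3 fitted ratios lay above and 2 below, and the unfitted Ccl9 and Ccl4 had means of 1.23 and 0.35. Of the 4 CC ligands without a fit, Ccl9, a ligand of CCR1, had the widest spread: -1.01 on array 3, 2.73 on array 4, 0.06 on array 5, 2.67 on array 6 and 1.71 on array 7. The 3 values over 1 were those with the mutant in Cy5. Ccl20, Ccl25 and Ccl4 had means from -0.14 to 0.35.

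Of the CXC ligands, 5 were fitted, 3 above 0 and 2 below, and none passed, with 1 (Cxcl14) at an unadjusted p below 0.05. Cxcl14, a chemokine made by epidermis and fibroblasts, was above 0 on all 8 arrays: 0.63, 0.17, 1.45, 0.88, 0.54, 0.68, 0.05 and 5.72 on arrays 1 to 8. The value on array 8 stood far above the other 7. The fitted ratio was 1.27 ± 0.46 (SE; adjusted p 0.146 in limma), and without array 8 it was 0.66 (adjusted p 0.0894 in limma). Cxcl9, a ligand of CXCR3 induced by interferon gamma, lay on both sides of 0, from -1.01 to 0.13, and was fitted at -0.27 ± 0.22 (SE, n = 6). Cxcl2, Cxcl12 and Cxcl13, which attract neutrophils, CXCR4-bearing cells and B cells, were at 0.36, 0.19 and -0.15. Cxcl1, a neutrophil attractant like Cxcl2, had no fit and was below 0 on 5 of 6 arrays, with 1.12 on array 5 and a mean of -0.52 ± 0.96 (SD).

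Among the chemokine receptors, 5 of 13 were fitted and none passed, with 1 (Ccr6) at an unadjusted p below 0.05. Ccr6, the receptor of CCL20 on T cells and dendritic cells, was below 0 on all 6 arrays with a value: -1.63 on array 1, -0.41 on array 4, -0.01 on array 5, -0.59 on array 6, -0.03 on array 7 and -0.80 on array 8. Arrays 5 and 7 were at 0 in practice. The fitted ratio was -0.58 ± 0.25 (SE; adjusted p 0.220 in limma). Its ligand Ccl20 had 5 values between -0.00 and 0.49. Cxcr4, the receptor of CXCL12, was 0.75, -0.68, 1.77, -0.01, 0.49 and -0.09 on arrays 1 to 6 and 5.30 on array 8. It was fitted at 0.91 ± 0.47 (SE; adjusted p 0.302 in limma), and at 0.37 without array 8. Cxcr5, the B cell receptor of CXCL13, was at 0.35, Ccr3, the eotaxin receptor of eosinophils, at 0.10, and Cxcr3 at -0.19. Among the 8 without a fit, Ccr1 lay between -0.59 and 0.19 on 5 arrays and at -4.22 on array 2. Ccr8 had a mean of 0.74, with 2.61, 0.99, 1.16 and 1.20 on the Cy5 arrays and -0.55 and -0.95 on the Cy3 arrays.

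Of the interleukins, 11 of 20 were fitted, 6 above 0 and 5 below, with a median of 0.25. None passed, with 3 (Il5, Il1f6 and Il11) at an unadjusted p below 0.05. Il5, the growth factor of eosinophils, had the highest ratio of the 56 genes with all arrays, and not without array 8, where Il12rb1 (0.79) and Il11 (0.77) were above it. It was 0.75 on array 1, 2.12 on array 3, 1.11 on array 4, 0.57 on array 5, 0.40 on array 6, -0.48 on array 7 and 5.84 on array 8. The fitted ratio was 1.33 ± 0.53 (SE; adjusted p 0.181 in limma), was 0.74 without array 8, and was -0.99 with the table read as Cy5 over Cy3. Il1f6, now called interleukin 36 alpha and made by keratinocytes, was above 0 on 6 of 8 arrays and fitted at 0.59 ± 0.20 (SE; adjusted p 0.112 in limma). Its mean was 1.30 in the Cy5 orientation and -0.11 in the Cy3 orientation. Il18, an alarm cytokine of keratinocytes, was -3.68 on array 1 and between -0.78 and 0.98 on arrays 4 to 8. Its fitted ratio was -0.49 ± 0.49 (SE, n = 6), and 0.22 without array 1, so the sign rested on that array. Il1a, the other alarm cytokine of keratinocytes with a fit, was at -0.09 ± 0.18 (SE, n = 8).

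Il17a, which drives antimicrobial and neutrophil-attracting genes in keratinocytes, had too few values for the fit. It was 0.38 on array 2, 1.06 on array 4, 0.06 on array 5, 0.51 on array 6, 0.25 on array 7 and 0.86 on array 8. All 6 lay above 0, with a mean of 0.52 ± 0.38 (SD). Fitted under a looser filter of 3 arrays in all, its ratio was 0.51 (adjusted p 0.335 in limma). Il22, which acts on keratinocytes, was fitted at -0.28 ± 0.21 (SE, n = 8). The type 2 cytokines Il4 and Il13 had no fit and means of -0.30 and 0.03. Il1b, of myeloid cells, had 4 values with a mean of -0.71 ± 0.91 (SD), the lowest -1.87 on array 4.

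The interleukin receptors and binding proteins were the largest group, with 16 of 28 fitted, 9 above 0 and 7 below, a median of 0.12 and no call. At an unadjusted p below 0.05 there was 1, Il15ra. Il15ra, which presents interleukin 15 to lymphocytes, was below 0 on all 6 arrays with a value: -0.79 on array 1, -0.88 on array 4, -0.75 on array 5, -0.84 on array 6, -0.01 on array 7 and -0.23 on array 8. Arrays 1, 4, 5 and 6 gave nearly equal values and arrays 7 and 8 lay closer to 0. The fitted ratio was -0.58 ± 0.22 (SE; adjusted p 0.171 in limma), with means of -0.58 and -0.59 in the 2 orientations. Il7r, which lymphocytes need to survive, was below 0 on 5 of 6 arrays and fitted at -0.39 ± 0.22 (SE). Il2rb, the chain shared by the interleukin 2 and 15 receptors, was also below 0 on 5 of 6 arrays, at -0.27 ± 0.22 (SE).

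At the other end, Il18r1, the ligand-binding chain of the interleukin 18 receptor, was between -0.21 and 0.56 on 6 arrays and 4.16 on array 8. The fitted ratio of 0.87 ± 0.41 (SE; adjusted p 0.253 in limma) became 0.22 without that array. Its partner chain Il18rap was above 0 on 6 of 7 arrays and fitted at 0.40 ± 0.23 (SE). Il10ra, the ligand-binding chain for interleukin 10, was above 0 on all 6 arrays with a value, with 0.18, 0.28, 0.27, 0.45 and 0.44 on arrays 1, 4, 5, 6 and 7 and 1.47 on array 8. It was fitted at 0.52 ± 0.23 (SE; adjusted p 0.246 in limma), and at 0.31 without array 8. Il12rb1 was above 0 on 5 of 7 arrays and fitted at 0.52 ± 0.31 (SE; adjusted p 0.373 in limma), at 0.31 without array 2 and 0.79 without array 8. Its partner in the interleukin 12 receptor, Il12rb2, had no fit and was below 0 on all 5 arrays with a value: -0.87, -0.00, -0.89, -0.28 and -1.68 on arrays 4 to 8, with a mean of -0.75 ± 0.65 (SD). Il13ra2, a decoy receptor of interleukin 13, was above 0 on 6 of 7 arrays and fitted at 0.49 ± 0.23 (SE).

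Il6st, the gp130 chain through which interleukins 6 and 11 signal and which SOCS3 binds, was above 0 on 5 of 6 arrays, at 0.35 ± 0.25 (SE). Il6ra had 5 values with a mean of 0.68 ± 1.10 (SD), and Il11ra1 had 6 with a mean of -0.95 ± 0.86 (SD), low on arrays 2 and 4 at -1.93 and -2.07. The interleukin 1 receptor Il1r1 and the interleukin 25 receptor chain Il17rb were fitted close to 0, at -0.02 and -0.00, with a 95% interval of -0.43 to 0.43 for Il17rb.

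Of the 38 genes without a fit, all had fewer than 3 values with the mutant in Cy3, and 22 had a mean above 0 and 16 below. Means ran from -1.16 (Socs2) to 1.23 (Ccl9), with a median of 0.07. Under the looser filter of 3 arrays in all, limma called 0 of the 38, with 3 at an unadjusted p below 0.05 and a lowest adjusted p of 0.161 (Ccl9). That fit called only 382 of 20511 probes, so the absence of a call among so few genes says little.

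A single sign on every array with a value was found for 6 fitted genes, 10.7% against 7.06% of all probes: Socs3, Ccr6 and Il15ra below 0, and Ccl21a, Cxcl14 and Il10ra above. In 27 of the 56 (48.2%, against 59.0% of probes) the means of the 2 orientations had opposite signs. The test of the dye part called 3 of the 56 genes (5.36%), against 5.34% of probes. Il11, which signals through gp130, was -0.23, 4.38, -0.93, 1.04, -0.42, 1.47, 1.40 and -0.12 on arrays 1 to 8. Every Il11 value with the mutant in Cy5 was above 1, and every value with the mutant in Cy3 was below 0. Its fitted ratio was 0.82 ± 0.32 (SE; adjusted p 0.166 in limma) with a dye part of 2.50 (adjusted p 0.0447 in limma), and the ratio was 0.44 without array 2. Ccl5, an attractant of T cells, had means of 1.23 and -0.72 in the Cy5 and Cy3 orientations, a dye part of 1.96 and a ratio of 0.25. Il16, a ligand of CD4, had the opposite order, with means of -0.51 and 1.26, a dye part of -1.77 and a ratio of 0.38. If the table is read as Cy5 over Cy3, these 3 are the genes past the test, at 1.25 for Il11, 0.98 for Ccl5 and -0.89 for Il16 (adjusted p 0.0447, 0.0388 and 0.0371 in limma).

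**Figure D3:**
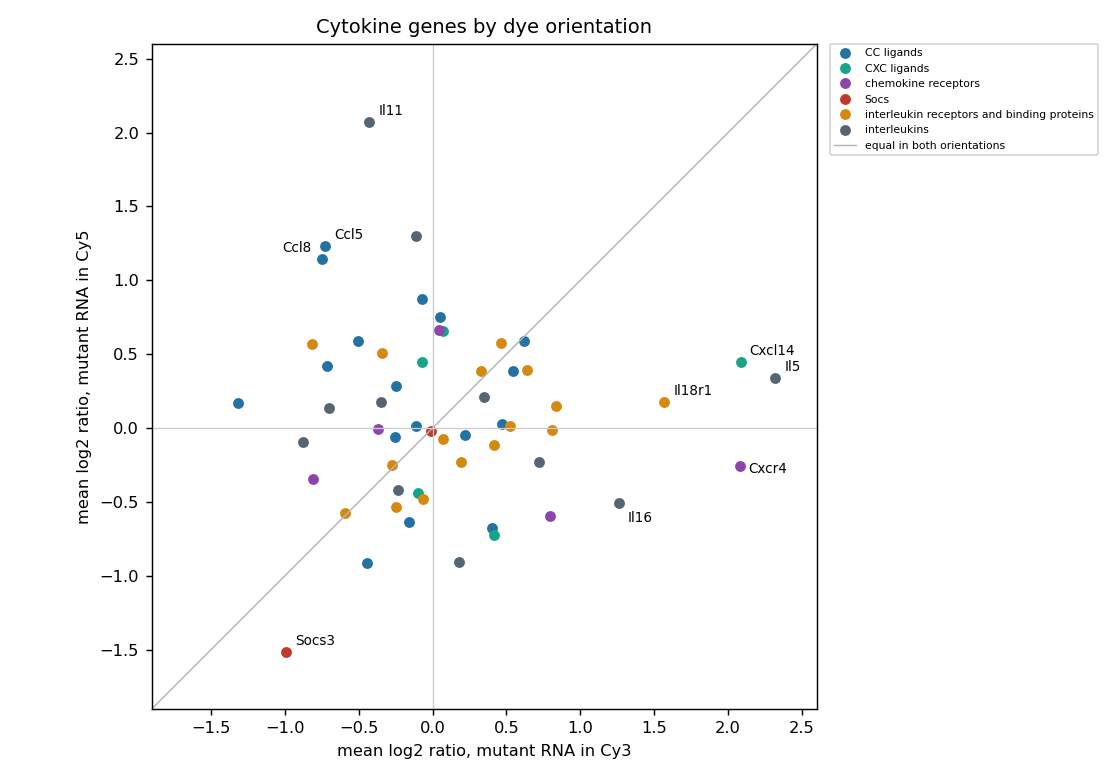
Mean log2 ratio of mutant over wild type with the mutant RNA in Cy3 (horizontal axis) and in Cy5 (vertical axis), 1 point per fitted gene, coloured by role, with a line where both are equal. Socs3 lies low in both orientations (-0.99 and -1.51), while Il11 and Il16 lie on opposite sides of 0 in the 2 orientations.

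The arrays differed in coverage and spread. Values were present for 36 to 93 of the 94 genes, with the fewest on arrays 3, 2 and 1, and the SD over all rows ran from 0.57 to 1.60. The median of the genes on an array lay between -0.12 and 0.19, that of all probes between -0.14 and 0.12. The 12 pairs of arrays of the same orientation correlated above 0 over the genes, with a median r of 0.50. Of the 16 pairs of opposite orientation, 12 correlated below 0, with a median r of -0.17, and these correlations describe pairs that share arrays. Over all probes the 12 pairs of the same orientation also correlated above 0, with a median r of 0.49. There the 16 opposite pairs had a median r of -0.02, with 10 below 0. The 4 values above 4 on array 8 belonged to Cxcl14, Cxcr4, Il18r1 and Il5, which rank among the highest fitted ratios. Without array 8 the 4 ratios lay between 0.22 and 0.74.

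**Figure D4:**
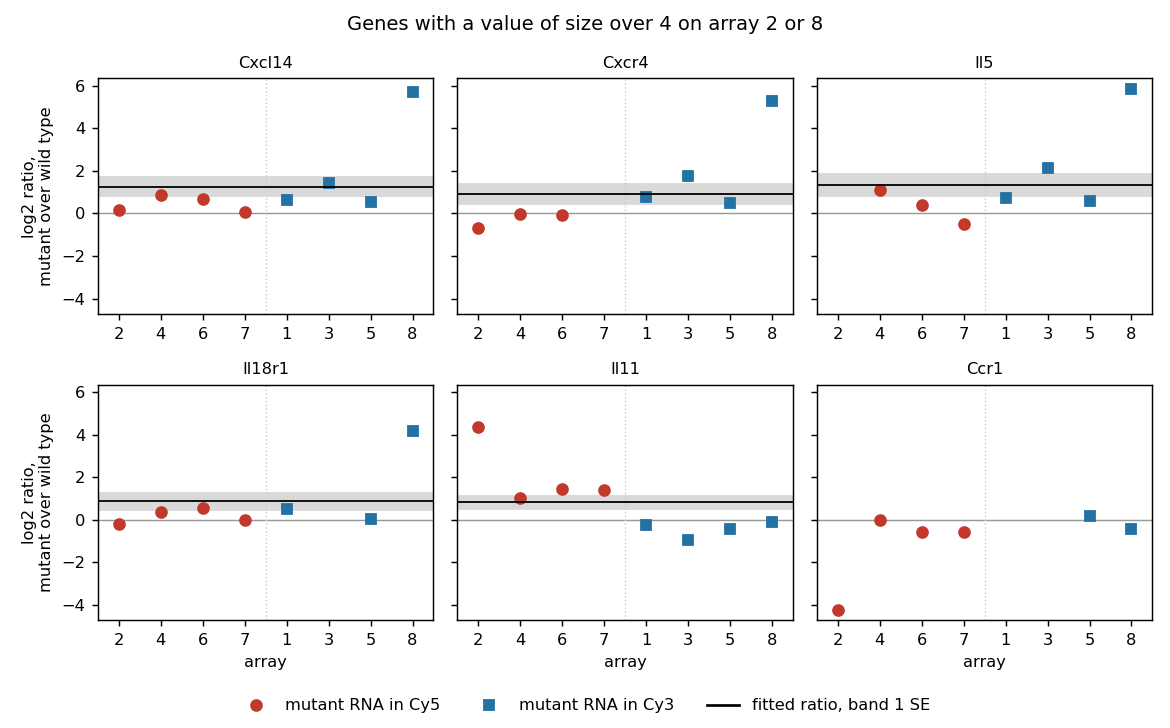
Log2 ratio of mutant over wild type (vertical axis) on each array (horizontal axis), with a panel for each gene that had a value of size over 4 on array 2 or 8, and symbols, line and band as for the Socs genes. That value stands apart from the other values of its gene, as for Cxcl14 at 5.72 on array 8 and Ccr1 at -4.22 on array 2.

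Other genes of the same pathways gave no call. Among 52 fitted genes of 4 lists, limma called none, with 6 at an unadjusted p below 0.05, and their median ratio was 0.06. Of all probes, 4.21% were called and 20.5% had an unadjusted p below 0.05. After quantile normalization 2 were called (Osmr and Cx3cr1), and with array weights 3 (Osmr, Rgs1 and Ccrl2). Those settings called 1137 and 1384 of the 11974 probes. Of 11 fitted genes of JAK-STAT signalling, 7 lay above 0 and 4 below, from -0.40 for Ptpn2, a phosphatase of Janus kinases, to 0.57 for Ptprc, the leukocyte phosphatase CD45. Of 10 genes of NF-kB and MyD88 signalling, 9 lay above 0, from -0.00 for Rela, the p65 subunit, to 0.44 for Nfkbib, an inhibitor of it, with a median of 0.09. Of 22 other cytokine genes, 12 lay above 0, from -0.41 for Clcf1, a ligand acting through gp130, to 0.75 for Osmr, the oncostatin M receptor. Osmr was called after quantile normalization (0.75; adjusted p 0.0325 in limma) and with array weights (0.70; adjusted p 0.0146 in limma). Of 9 other chemokine genes, 6 lay below 0, from -0.70 for Cx3cr1, the fractalkine receptor of macrophages, to 0.52 for Pik3cg, a kinase under chemokine receptors.

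Markers of the cells that could carry these genes were listed by cell type. Since ratios hold no levels, whether a cell type was present could not be read from them, and fewer cells of a type and less RNA per cell cannot be told apart. No fitted marker of T cells (4), neutrophils (8) or endothelium (10) was called, with 6 of these 22 at an unadjusted p below 0.05. Of all probes, 20.5% were below that p, which is the share to set beside each such count here. Of 9 macrophage and dendritic cell markers, 1 was called lower, C1qb (-1.37), beside 3.53% of all probes called lower. The other chains of the same complex, C1qa and C1qc, were at 0.39 and -0.28 and were not called. The median of the 9 was -0.17, with array medians between -0.35 and 1.12. Beside 0.676% of all probes called higher, this call was made for 1 of 5 B cell markers (Blk), 1 of 7 mast cell markers (Mcpt2), 1 of 4 epidermal markers (Krt1) and 2 of 8 dermal markers (Fbn1 and Vim). All 5 B cell markers lay above 0, with a median of 0.55 and 3 at an unadjusted p below 0.05. Of the dermal markers 7 of 8 lay above 0, with a median of 0.62 and 5 at an unadjusted p below 0.05. The medians of the mast cell and epidermal markers were 0.17 and 0.36, with 2 at an unadjusted p below 0.05 in each list. The epidermal ones went opposite ways, Krt1 at 1.305 and Ivl at -1.06. Below that p were also 4 of the 9 macrophage and dendritic cell markers, in both directions. C1qb and Lyz2 (-0.74) lay below 0, and Aif1 (0.41) and Tyrobp (0.71) above. The part of any cell type in the Socs3 ratio was not tested. Hr, the gene named for the hairless phenotype, had 6 values between -1.16 and 0.60, with a mean of -0.17 ± 0.64 (SD), on both sides of 0. The part of the transcript that its probe reads is unknown here, so the value is no check of the genotype.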

How the data were processed

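The authors deposited 1 table of log ratios of the 2 channels, with 23232 rows and 8 arrays, read here on a log2 scale. Base 10 would pass the range of a scanner, and a natural logarithm is not excluded, so sizes rest on the base. How images were read, ratios normalized and spots dropped is not given in the sources used here. Spot intensities were not analysed here. Control spots (1235) were left out, and 232 Gapdh spots were averaged. Rows were named through RefSeq genes of GRCm38.p6: of 21766 probes, 6518 matched by accession, 77 by synonym and 15171 had no name. The table was read as turned to mutant over wild type on every array, with Cy5 over Cy3 as an alternative.

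Each of 11974 probes was fitted in limma 3.58.1 under R 4.3.3 for its ratio and its dye part, with Benjamini-Hochberg adjustment at 0.05 over all of them, after a check on simulated data. The suffixes st, rn, rap, rl1 and bp were taken as part of the Il rule. The named genes are those past the test, the 8 highest and 8 lowest ratios, the extremes of each role, and genes of 1 sign on every array. Other genes were named after their values were seen. The members and lists were chosen with earlier results of these data known. The alternatives were other scalings, filters and weights, no dye term, named genes alone, arrays 4 to 8 alone and each array left out.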

Additional observations from a re-analysis of the deposited data

Results flagged for a closer look

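In 16 of the 90 genes with values on 4 to 8 arrays, the highest or lowest array stood apart from the others by Dixon's criterion, where chance flags about 1 in 20 (4.5 of 90). Array 8 held 8 of them and array 2 held 5. On array 8, Cxcl14 was at 5.72, Cxcr4 at 5.30, Il5 at 5.84, Il18r1 at 4.16, Il10rb at 2.40, Il2ra at 1.74, Il10ra at 1.47 and Ccl4 at 1.17, all above the rest of their gene. On array 2, Il11 was at 4.38, Ccl19 at 1.84 and Ccl21b at 1.85 above the rest, and Ccr1 at -4.22 and Il13ra2 at -0.85 below. Ccl22 was low on array 7 at -0.95, Il20 on array 4 at -1.53 and Il9r on array 5 at -0.39. What sets these values apart was not tested.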

How the results depend on the processing

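The Socs3 ratio was past the test with each array that held a value left out (adjusted p from 0.0138 to 0.0446 in limma). It was also past the test on arrays 4 to 8 alone. It was not past it, at -0.26, when the table was read as Cy5 over Cy3. The count of called cytokine genes was 5 after quantile normalization (Cxcl14, Il11, Il1f6, Il5 and Socs3), 7 with array weights (Ccl1, Ccl2, Ccl6, Il13ra2, Il15ra, Il1f6 and Socs3) and 3 read as Cy5 over Cy3. These counts are out of 56 genes. In the same order, those settings called 1137, 1384 and 640 of the 11974 probes. Among the 22 cytokine genes with values on all 8 arrays the count was 0, since Socs3 has none on array 3. Of the 5057 probes with values on all 8 arrays, 387 were called. Of the 52 pathway genes, 2 were called after quantile normalization and 3 with array weights. The count over all probes was 1137 after quantile normalization, 1384 with array weights, 258 without the dye term, 131 among named genes alone and 64 on arrays 4 to 8. With 1 array left out it ran from 238 to 502, being 238 for array 1, 301 for array 6, 318 for array 7 and 324 for array 4. For the 18 fitted genes named by rule other than Socs3, 328 fits under alternatives gave 300 with the same direction and side of the test, 9 that passed it newly and 19 with another sign and no call. Missing values on arrays 1 to 3 limit what could be tested, and the number of arrays limits the precision.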
